A study of Drosophila melanogaster with 8 samples.

Results

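Fat bodies of Drosophila melanogaster larvae homozygous for a mutant allele of Cpsf5 (genotype CPSF5H11/CPSF5H11) were compared with fat bodies of the wild-type strain OreR, both after 16 h of starvation. The libraries were chosen by the genotype and starvation labels alone, which gave 2 mutant and 2 wild-type libraries, 4 of the 8 in the study. The other 4 libraries were OreR fat bodies, 2 from fed larvae and 2 from larvae starved for 4 h, and they serve here as levels to read the comparison against and as a source of the spread estimate. The study asks how the response of the fat body to starvation depends on CPSF5. No fed mutant was analysed here, so what the genotype does to a fed fat body and what it does to the response to starvation cannot be told apart. The labels give neither the larval age nor the genetic background of the mutant stock, so the allele, the strain and the stage reached at dissection cannot be told apart either.

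Cpsf5 is the small subunit of cleavage factor I, which binds UGUA elements upstream of the sites where pre-mRNAs are cut and polyadenylated, together with its partner Cpsf6. In mammalian cells, loss of the small subunit moves many mRNAs to upstream cleavage sites and shortens their 3′ UTRs. The larval fat body does the work of liver and adipose tissue: it stores fat, glycogen and protein, secretes proteins into the hemolymph, lowers biosynthesis and induces autophagy when food is withdrawn, and answers the steroid hormone ecdysone at the end of larval life by making storage proteins.

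Levels below are scaled TPM, which is the deposited transcripts-per-million value divided by a factor for each library, and differences are on the log2(scaled TPM + 1) scale, mutant minus wild type at 16 h, with limma's standard error (SE) and adjusted p; this scale understates the change of weakly expressed genes. A gene is called higher or lower where the adjusted p is below 0.05. The scaling mattered because ribosomal RNA took 48.8% and 31.1% of the deposited TPM in the wild-type libraries at 16 h but 4.58% and 5.41% in the mutant libraries, while nuclear protein-coding genes took 17.6% and 28.1% against 38.2% and 40.0%. The scaling factors ran from 0.537 to 1.52, and libraries of a group ranked the genes alike (Spearman 0.886 to 0.958 across genes). Without scaling, the median of all genes sat at 0.77 instead of 0.09, so each change below is relative to a median gene set near 0. Read depth is not given by TPM values. In a bulk tissue, fewer cells of a type and less RNA per cell cannot be told apart, and nothing says that the 2 libraries of a group came from separate dissections, so the p-values measure only the spread between these libraries, which may be technical.

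The fat-body label was read beside 11 marker genes. The GATA factor srp, which specifies the fat body, stood at 14.8 and 15.5 in wild type and 14.6 and 14.8 in the mutant. The lipid droplet protein gene Lsd-1 stood at 427 and 533 against 641 and 355, and the lipoprotein precursor gene apolpp at 1917 and 1450 against 2335 and 1732. For these 3 genes the groups overlapped, and all 4 libraries expressed them. Adh, another of the 11, did not pass (0.63 ± 0.39, limma adjusted p = 0.255). The study holds no library of another tissue to set these levels against, so the markers do not settle the label. The 5 markers that fell were storage protein genes, described below; Mtp, of lipoprotein assembly, and the storage protein gene Lsp1gamma were higher.

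The targeted gene gave no clear difference at the level of its mRNA. Cpsf5 stood at 5.06 and 4.20 scaled TPM in wild type at 16 h against 3.6 and 3.01 in the mutant, with 12.0 and 10.9 in the fed libraries. The mutant libraries were the lower ones and the groups did not overlap, but the log2 difference of −0.39 ± 0.24 did not pass (limma adjusted p = 0.256), and unscaled TPM gave 0.33 with adjusted p = 0.437. How the allele changes the gene is not given in the labels, so the level does not check the genotype. What did differ was the annotated isoform: Cpsf5-RC held 53.8% and 45.6% of the gene's TPM in wild type and 85.3% and 83.9% in the mutant, where Cpsf5-RB held the rest. The mutant shares lay nearer to the fed ones, 92.5% and 91.1%, than to those of starved wild type. The isoform difference passed (log2 ratio 1.45 ± 0.23, limma adjusted p = 0.011) but not without wild-type library 2 (0.062), mutant library 1 (0.0705) or mutant library 2 (0.0544). Within 100 kb of Cpsf5 (chromosome 3L, 9411038 to 9413835, plus strand, annotation build BDGP6.54), 8 of 47 tested genes were higher and 5 lower, beside the 21.4% and 12.1% of all genes given below.

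The mutant fat body differed from starved wild type in a large part of its transcriptome. Of 8332 genes tested, 1781 were higher (21.4%) and 1010 lower (12.1%) in the mutant, 33.5% in either direction. These shares are the background for the counts of every gene list below. Of the called genes, 503 were higher and 248 lower by at least 2 log2 units. In all 2791 called genes the 2 groups did not overlap, against 72.3% of all genes tested, which is the background for such a pattern at 2 libraries a group. Called genes were spread over the chromosomes, with 21.2% to 21.8% higher on arms 2L, 2R, 3L, 3R and X and 14.9% on chromosome 4. Of the calls, 1655 and 898 were in 7645 protein-coding genes and 64 and 20 in 215 small nucleolar RNAs. The count higher fell to 1014 without wild-type 16 h library 2 and to 1185 without library 1, and the count lower to 561 and 566 without mutant libraries 2 and 1 and to 638 and 654 without wild-type 16 h libraries 1 and 2. Unscaled TPM gave 3864 higher and 333 lower, which moved the share of higher calls from 63.8% to 92.1%. Rescaling over protein-coding genes gave 69.6% higher calls and quantile normalization 54.0%.

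**Figure D1:**
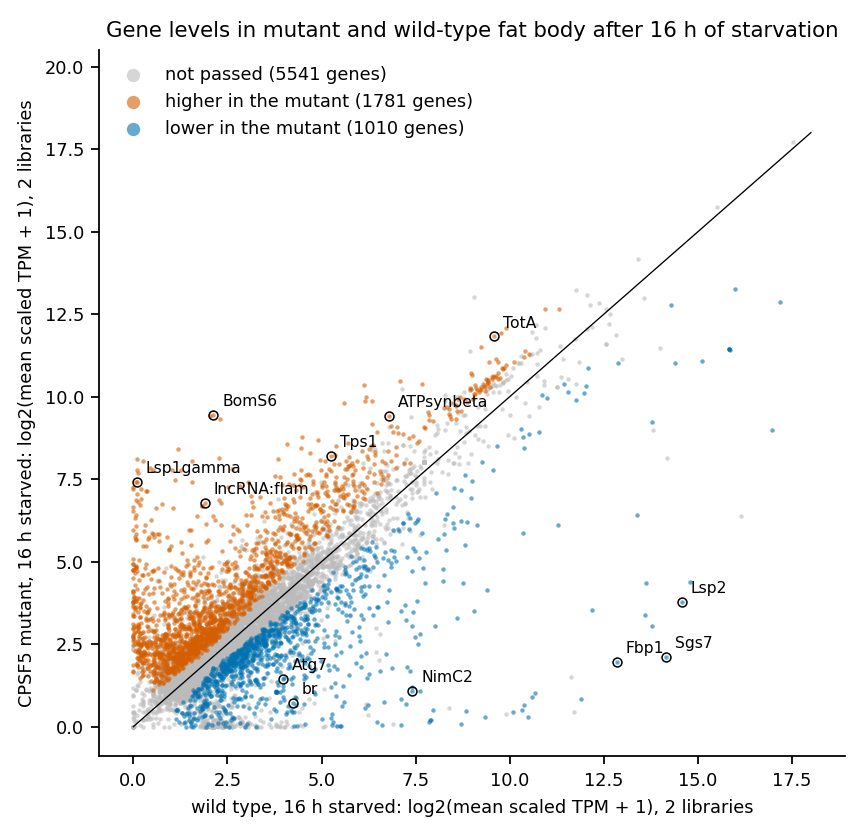
Mean level in the 2 mutant libraries (y axis) against that in the 2 wild-type 16 h libraries (x axis), both as log2(mean scaled TPM + 1), for 8332 genes, with the 1781 called higher and 1010 called lower in colour, the line of equal levels and some named genes labelled. Lsp2, Fbp1 and Sgs7 lie far below the line, with log2 differences of −10.86, −10.88 and −11.79, and BomS6 and Lsp1gamma far above it.

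The deepest falls were in the proteins that the late larva stores and secretes. Of 6 storage protein genes, 5 were lower and 1 higher in the mutant. Lsp2, a hexameric storage protein of the hemolymph, stood at 23728 and 24705 scaled TPM in wild type at 16 h against 8.64 and 16.7 in the mutant. Fbp1, the receptor through which the fat body takes storage proteins back up, stood at 9098 and 5641 against 2.13 and 3.61, and Fbp2 at 13064 and 15182 against 4.17 and 10.4. The groups did not overlap in any of these genes, which stood at 5641 or more in both wild-type libraries and at 16.7 or less in both mutant libraries, with log2 differences of −10.86 ± 0.49 for Lsp2 (limma adjusted p = 0.000193), −10.88 ± 0.57 for Fbp1 (0.000276) and −10.84 ± 0.86 for Fbp2 (0.000812). The genes of Lsp1, the other storage hexamer, differed unequally: Lsp1alpha stood at 12752 and 12168 against 9.41 and 9.48 (−10.22 ± 0.38, 0.000179), while Lsp1beta stood at 14875 and 13452 against 735 and 468 (−4.59 ± 0.35, 0.000751). Lsp1gamma was the exception in direction, at 0.065 and 0.069 in wild type and 132 and 204 in the mutant (7.27 ± 1.16, 0.00622), and it stood at 15.6 and 0.0358 in the fed libraries. The 5 falls and the rise passed without any 1 library.

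The fed libraries separate these genes further. Fbp1 stood at 6.56 and 13.0 in fed wild type, and it reached 8866 and 23553 by 4 h of starvation, so the mutant level at 16 h lay below even the fed one. Lsp1alpha, by contrast, stood at 4525 and 9728 in fed wild type and Lsp2 at 2373 and 5703, so the mutant lay far below larvae that had not been starved. The mutant libraries were the lowest of all 8 for Lsp2, Fbp1, Fbp2, Lsp1alpha and Lsp1beta.

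Genes of the salivary gland, a neighbour of the fat body in dissection, moved with the storage proteins. Of 14 tested marker genes 9 were lower, none higher, with a median difference of −6.27 against 0.09 for all genes. The glue protein gene Sgs7 stood at 8523 and 27808 in wild type at 16 h, 13948 and 15280 at 4 h, 31.8 and 3.19 in fed larvae and 2.98 and 3.75 in the mutant (−11.79 ± 1.0, limma adjusted p = 0.000995). Sgs3 stood at 330 and 135 against 0.114 and 0.0752, and sage, the transcription factor of the gland, at 15.3 and 46.6 against 3.63 and 2.33 (−2.83 ± 0.49, 0.00823, or 0.0519 without mutant library 2). All 4 starved wild-type libraries were high in the glue genes, and the fed and mutant libraries low. Sgs5 fell by 10.81, Sgs8 by 9.54 and Sgs4 by 7.69, where the neighbouring pair Sgs5 and Sgs5bis may share reads. For a pair of other listed genes of the gland the groups overlapped: ng3 stood at 1058 and 1338 in wild type and 3459 and 668 in the mutant, and the gland prolyl hydroxylase gene PH4alphaSG1 at 6.73 and 7.10 against 15.9 and 5.21. The summed level of the whole marker list was 15122 and 41659 in wild type and 4714 and 896 in the mutant. The part of gland RNA in other results was not tested. The ecdysone-induced gene Eig71Ee, also on that list, fell by 10.01 (0.000238). Outside it, the largest falls included Obp99b, an odorant-binding protein gene, at 13152 and 12211 against 13.3 and 25.6 (−9.35 ± 0.51, 0.000328), and the uncharacterised genes CG7606, CG15404 and CG31698 with −9.65, −9.58 and −9.42.

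Genes of the ecdysone response were lower in the mutant. Of 14 tested, 7 were lower and none higher, with a median of −0.82 against 0.09 for all genes. The transcription factor gene br stood at 18.8 and 17.2 in wild type at 16 h against 0.699 and 0.582 in the mutant, beside 0.915 and 1.02 in fed larvae (−3.53 ± 0.18, limma adjusted p = 0.000247). Eip74EF, another early-response transcription factor gene, stood at 12.1 and 13.7 against 1.1 and 1.13 (−2.71 ± 0.12, 0.000183). EcR, the hormone receptor gene, stood at 17.7 and 30.3 against 5.61 and 4.40 (−2.02 ± 0.26, 0.00318). For br and Eip74EF the mutant libraries lay at the fed level, whereas EcR stayed above its fed level of 2.54 and 2.73, and in none of the 3 genes did the groups overlap. The transporter gene E23 fell by 3.18, and the nuclear receptor genes Eip78C, Eip75B and Hr39 by 1.17, 1.14 and 0.98. Of the steroid synthesis genes of the ring gland, another neighbouring tissue, only sro and spok were tested. The first stood at 30.3 and 24.3 in wild type and 0.988 and 1.01 in the mutant (−3.82 ± 0.37, 0.00146), with 1.12 and 1.93 in fed larvae, and spok did not pass (0.38 ± 1.12). NimC2, a gene of the Nimrod receptor family, was also lower in the mutant, at 195 and 143 against 1.23 and 1.03, with 0.455 and 0.528 in fed larvae (−6.30 ± 0.32, 0.000264). Without scaling, Eip78C (0.082), Eip75B (0.464) and Hr39 (0.306) lost their calls, and Eip75B also did without mutant library 1 (0.0511) or 2 (0.0537).

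**Figure D2:**
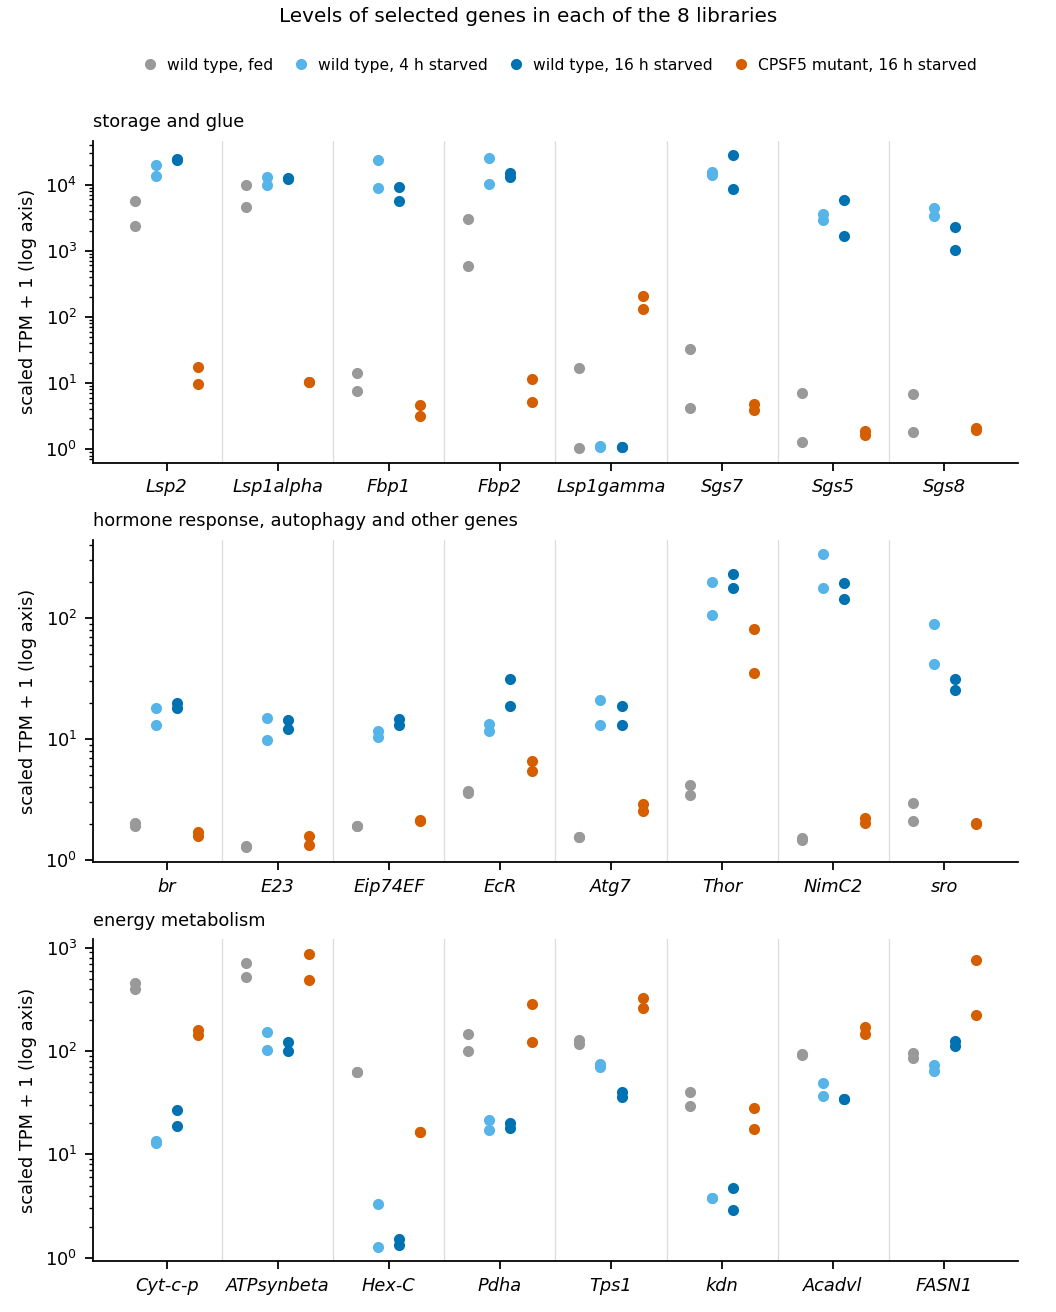
Scaled TPM + 1 on a log axis (y axis) of named genes in each of the 8 libraries, 1 point a library, grouped as fed, 4 h starved and 16 h starved wild type and 16 h starved mutant. The storage and glue genes other than Lsp1gamma and the ecdysone-response genes are lower in both mutant libraries than in the 4 starved wild-type libraries, and the genes of energy metabolism are higher in the mutant libraries than in those of wild type at 16 h.

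Genes of energy metabolism were higher in the mutant, almost without exception among those called. Of 33 tested nuclear genes of respiratory complex I, 30 were higher and none lower (median 1.47), and of 40 genes of complexes II to V and cytochrome c, 31 were higher and none lower (median 1.86). Cyt-c-p, the somatic cytochrome c gene, stood at 17.9 and 25.9 in wild type at 16 h against 143 and 159 in the mutant, beside 454 and 398 in fed larvae (2.75 ± 0.23, limma adjusted p = 0.000993). ATPsynbeta, the catalytic subunit of ATP synthase, stood at 120 and 99.5 against 874 and 485 (2.56 ± 0.37, 0.00463). Both mutant libraries were above every starved wild-type library in both genes. For the genes of complex II the gap between mutant and fed larvae was smaller than for Cyt-c-p. SdhA, SdhB, SdhC and SdhD had mutant means of 16.0, 27.2, 31.3 and 17.1 scaled TPM. Their fed means were 20.8, 32.3, 34.8 and 19.3. The differences of complex I genes ran from 0.57 to 2.04, and the largest were 2.04 for ND-75, 1.94 for ND-ACP and 1.92 for ND-51. The 13 protein-coding genes of the mitochondrial genome had a median of 1.66, but only 3 were called higher, and none were without any 1 of the 16 h libraries; the mitochondrial genome held 1.42% and 1.88% of TPM in wild type and 6.0% and 7.29% in the mutant.

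Sugar and fat metabolism moved the same way. Of 17 glycolysis genes 15 were higher and none lower (median 1.6), of 17 genes of the TCA cycle and pyruvate entry 9 were higher and 1 lower (median 0.95), and of 14 genes of glycogen, trehalose and sugar transport 6 were higher and none lower (median 0.81). Hex-C, a hexokinase gene of the fat body, stood at 0.525 and 0.324 in wild type at 16 h, 15.3 and 15.5 in the mutant and 62.1 and 62.2 in fed larvae (3.53 ± 0.41, limma adjusted p = 0.0024). Tps1, which makes the blood sugar trehalose, stood at 35.3 and 38.7 against 262 and 327, above the 126 and 116 of fed larvae (2.95 ± 0.20, 0.000541). So the mutant libraries lay between starved and fed wild type for Hex-C and above both for Tps1. Tret1-2, of the trehalose transporter family, stood at 1.07 and 0.702 against 15.4 and 12.7 (3 ± 0.18, 0.000416), and Glys, the glycogen synthase gene, rose by 2.15, Gpdh1 by 3.04 and the citrate synthase gene kdn by 2.58. Ldh rose by 3.35 on levels of 0.626 and 1.86 against 10.3 and 41.6 (0.0226), and it lost its call without wild-type library 1 (0.095), wild-type library 2 (0.0564) or mutant library 2 (0.0984).

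Both the breakdown and the making of fat were represented among the rises. Of 23 genes of lipolysis and fatty acid oxidation 15 were higher and none lower (median 0.85). Acadvl, an acyl-CoA dehydrogenase of fatty acid oxidation, stood at 33.6 and 33.6 in wild type and 170 and 145 in the mutant (2.19 ± 0.22, limma adjusted p = 0.00156), and colt, the mitochondrial carnitine carrier, rose by 2.27. The triglyceride lipase gene bmm was no part of that group pattern, at 17.0 and 14.0 against 3.17 and 9.30 (−1.33 ± 0.48, 0.0792). Of 15 genes of lipid synthesis 7 were higher and none lower (median 1.23), a count that fell to 3 or 4 without a fed library, a wild-type 16 h library or mutant library 1. SREBP, the transcription factor of lipid synthesis, stood at 8.37 and 12.1 against 49.2 and 35.6 (1.95 ± 0.23, 0.00241), and Baldspot, a fatty acid elongase gene, at 3.66 and 4.65 against 49.2 and 28.5 (2.91 ± 0.31, 0.00196). The groups did not overlap for SREBP or Baldspot. Among the genes of lipoproteins and iron carriers, Apoltp, which passes lipid between tissues, rose from 22.6 and 15.2 to 158 and 129 (2.87 ± 0.29, 0.00161), whereas apolpp, its partner particle, did not pass (0.27 ± 0.29, 0.502).

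The genes of protein synthesis were higher as well, with counts that leaned on single libraries. Among all genes 21.4% were higher and 12.1% lower. Of 82 tested cytoplasmic ribosomal protein genes 55 were higher and none lower (median 0.97), and this count was between 9 and 34 without either fed library or any 1 of the 16 h libraries, with 9 without wild-type library 1. Of 73 mitochondrial ribosomal protein genes 46 were higher (median 0.79), and 24 without wild-type library 2 or mutant library 1. Of 32 ribosome biogenesis genes 24 were higher (median 0.79), and 12 to 15 without wild-type library 2 or either mutant library. Of 20 aminoacyl-tRNA synthetase genes 10 were higher (median 0.47) and of 47 translation factor genes 14 higher and 1 lower (median 0.28), and both counts dropped, to 4 to 6 and to 2 to 8, without a fed library or any 1 of the 16 h libraries. The medians of these 5 lists were above the median of all genes under each of the 4 scalings. Myc, the transcription factor of ribosome genes, stood at 6.18 and 5.2 in wild type and 8.57 and 9.71 in the mutant (0.60 ± 0.26, limma adjusted p = 0.13). The 32 proteasome genes stayed close to the all-gene median, at 0.06, with none called by limma in either direction (1 higher when rescaled over protein-coding genes and 22 higher without scaling).

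**Figure D3:**
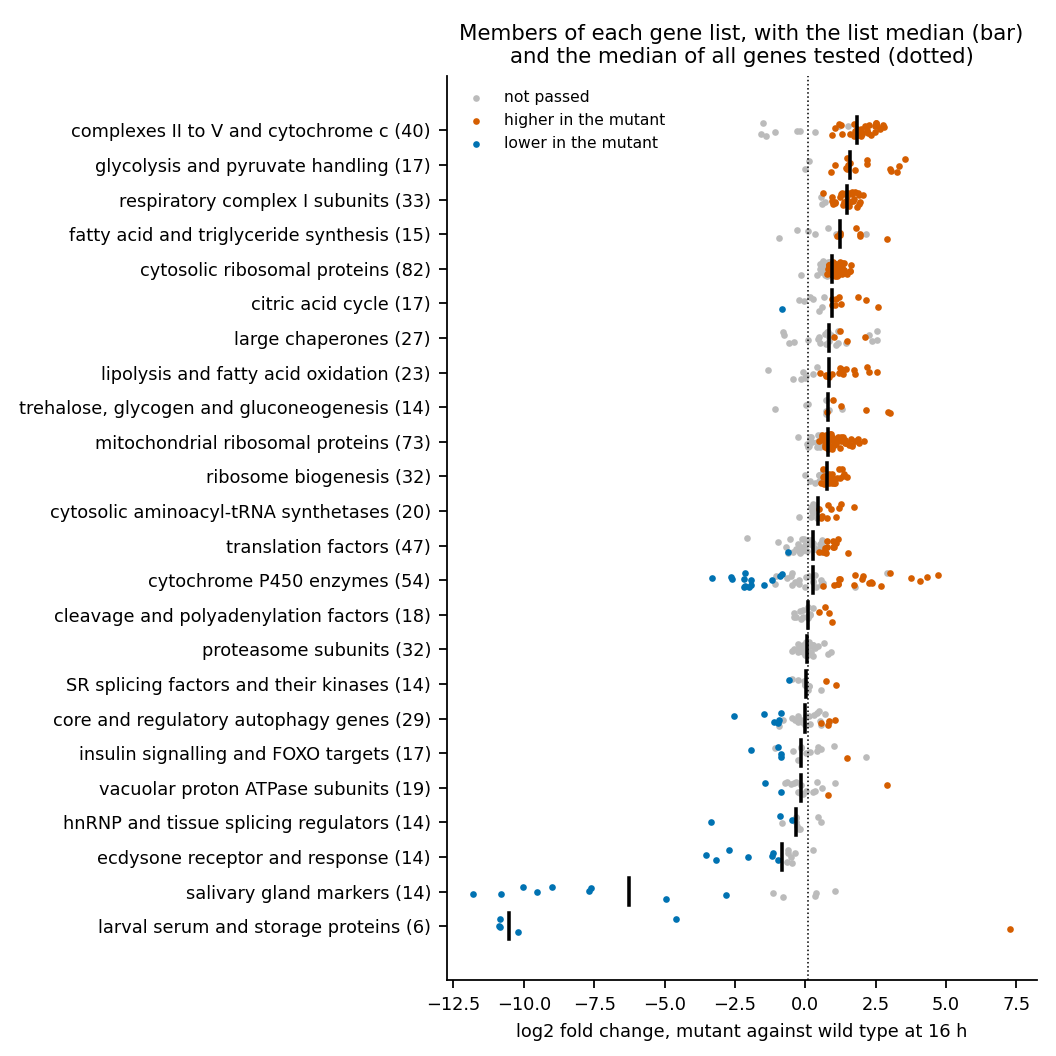
Log2 difference of each member of 24 gene lists, mutant minus wild type at 16 h (x axis), 1 point a gene, coloured by call, with a bar at the list's median and the number tested in parentheses; the dotted line is the all-gene median of 0.09. The medians of the respiratory chain, glycolysis and ribosome lists lie right of the line, and those of the storage, salivary gland and ecdysone lists left of it.

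The autophagy genes, which the fat body induces in starvation, did not move as a group. Of 29 tested 6 were lower and 4 higher, with a median of −0.02, beside 12.1% lower and 21.4% higher among all genes. Atg7, the E1-like enzyme that activates the Atg8 and Atg12 conjugation systems, fell most: it stood at 17.6 and 12.1 in wild type at 16 h against 1.90 and 1.53 in the mutant, beside 0.548 and 0.552 in fed larvae (−2.53 ± 0.27, limma adjusted p = 0.00181). Atg101, a subunit of the initiating kinase complex, stood at 5 and 3.6 against 0.991 and 0.804 (−1.47 ± 0.17, 0.0024), below the 4.95 and 6.15 of fed larvae. Neither gene's groups overlapped. Atg5, the partner of Atg12, fell by 0.92 (0.00503), Snap29 of the fusion machinery by 0.96 (0.0102, or 0.0529 without mutant library 1), Vamp7 by 1.09 (0.0239) and Atg1, the initiating kinase, by 0.87 (0.0333). On the other side, the lipid kinase gene Pi3K59F stood at 2.11 and 2.05 against 5.11 and 3.94 (0.83 ± 0.16, 0.0113). Atg13 stood at 5.31 and 5.72 against 9.01 and 17.0 (1.04 ± 0.27, 0.0283), Atg17 rose by 0.56 (0.0429) and Atg4a by 0.80 (just under 0.05). The calls of Vamp7, Atg1, Atg13, Atg17, Atg4a and Pi3K59F were lost without 1 or more of the fed or 16 h libraries, with adjusted p up to 0.107, 0.152, 0.101, 0.176, 0.205 and 0.0526. The higher count dropped to 0 or 1 without a fed or a wild-type 16 h library, and the lower count to 3 without mutant library 1. Atg8a, the ubiquitin-like protein on the autophagosome, stood at 151 and 171 against 131 and 160 with overlapping groups, all well above the 27.4 of both fed libraries. Without scaling the counts were 11 higher and 2 lower, so the group's direction depends on the scaling. Atg5, Snap29 and Atg1 were among the genes that lost their calls there (−0.19, −0.17 and −0.14, limma adjusted p = 0.525, 0.568 and 0.698).

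Signalling upstream of autophagy gave a mixed picture. InR, the insulin receptor gene, a target of the starvation factor FOXO, stood at 3.28 and 3.83 in wild type and 11.7 and 11.4 in the mutant (1.47 ± 0.18, limma adjusted p = 0.00284). The amino acid transporter gene path stood at 25.1 and 25.2 against 109 and 102 (2.02 ± 0.36, 0.00901). Mutant libraries were the high ones for both genes. Thor, the translation inhibitor 4E-BP and also a FOXO target, stood at 176 and 230 against 34.2 and 80.9, still far above the 3.18 and 2.46 of fed larvae (−1.91 ± 0.48, 0.0268). The call of Thor was lost without a fed library (0.0561 and 0.0568), wild-type library 1 (0.0678) or 2 (0.109), mutant library 1 (0.0996) or the scaling (0.11). Over the 17 tested genes of insulin signalling and FOXO, 1 was higher and 4 lower, beside 21.4% and 12.1% of all genes, but 8 were higher and none lower without scaling. The 4 lower became 0 without mutant library 1, 1 without wild-type 16 h library 1 and 2 without wild-type 16 h library 2, and the 1 higher became 3 without either 4 h library and 2 without mutant library 1. Of 22 genes of the TOR pathway and nutrient sensing 2 were higher and 1 lower, with 1 higher without mutant library 1 or either wild-type 16 h library, and none lower without a fed library, either mutant library or wild-type 16 h library 1.

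Genes of purine synthesis changed in both directions. Gart, a trifunctional enzyme of the pathway to inosine monophosphate, stood at 105 and 74.3 in wild type and 14.2 and 8.47 in the mutant (−2.90 ± 0.39, limma adjusted p = 0.00352). Paics, the enzyme of a later step, stood at 366 and 349 against 67.8 and 73.5 (−2.32 ± 0.32, 0.0037), and Adsl at 25.1 and 24.5 against 4.76 and 3.91 (−2.28 ± 0.33, 0.00427). Adss, which opens the branch from inosine to adenosine monophosphate, went the other way, at 9.79 and 15.3 against 69.5 and 91.6 (2.61 ± 0.26, 0.00162). No groups overlapped in these 4 genes. For Paics and Adss the mutant levels lay close to those of fed larvae, 68.8 and 72.5 for Paics and 101 and 113 for Adss, and for Gart and Adsl they lay below the fed 57.3 and 55.2 and 33.0 and 35.5. Over the 18 tested genes of nucleotide metabolism, 6 were higher and 6 lower, beside 21.4% and 12.1% of all genes.

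Stress and immune genes rose in subsets, to be read beside the 21.4% higher and 12.1% lower of all genes. TotA, a secreted stress peptide downstream of JAK/STAT signalling, stood at 880 and 663 in wild type and 3651 and 3593 in the mutant (2.24 ± 0.23, limma adjusted p = 0.00179), with 42.6 and 54.2 in fed larvae. TotC, a related peptide, stood at 5.34 and 2.44 against 931 and 360 (6.96 ± 0.76, 0.00199). Both genes were highest in the mutant libraries, although Turandot genes are similar enough that reads may be split between them. With dome, the receptor of the pathway, at 1.81 and 1.92 against 5.37 and 5.38 (1.15 ± 0.12, 0.00196), 6 of 8 tested Turandot and JAK/STAT genes were higher, and Stat92E, its transcription factor, was lower at 63.1 and 63.2 against 32.9 and 34.4 (−0.89 ± 0.25, 0.038), though not without any 1 fed or 16 h library (0.0626 to 0.126) or the scaling (0.999). Of 11 Bomanin genes, short peptides of the Toll response, 4 were higher and none lower. BomS6 stood at 3.03 and 3.71 against 433 and 957 (7.21 ± 0.72, 0.00161) and BomS5 at 0.810 and 0.375 against 54.0 and 57.4 (5.17 ± 0.59, 0.00227), whereas BomS1 did not pass at 49.9 and 29.7 against 7.65 and 37.5. Of 14 antimicrobial peptide genes only Def was called, at 0.254 and 0.230 against 31.3 and 106 (5.56 ± 0.51, 0.00125). Drosomycin (Drs), at 467 and 311 against 537 and 1495, did not pass (1.23 ± 0.74, 0.242), and among 27 chaperone genes and 9 small heat shock protein genes 4 and 0 were higher.

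The largest rises among protein-coding genes were in genes at 0 to 5.34 scaled TPM in wild type at 16 h. Acbp6, an acyl-CoA-binding protein gene, stood at 0.125 and 0 in wild type and 63.8 and 489 in the mutant (7.39 ± 0.88, limma adjusted p = 0.00253). Nepl11, a neprilysin-like peptidase gene, stood at 0.406 and 0.452 against 270 and 166 (7.22 ± 0.49, 0.000541), and CG13461 at 3.27 and 3.01 against 556 and 800 (7.33 ± 0.51, 0.000561). CG43133 (chromosome X, 18129585 to 18130178, minus strand) had the smallest SE of the 15 largest rises, at 0.0805 and 0.216 against 98.0 and 140 (6.69 ± 0.20, 0.000145). The mutant libraries were the high ones throughout, and several rises were uneven between them: CG9682 stood at 69.6 and 462 there, CG7290 at 58.6 and 376 and CG5550 at 53.6 and 354, in each case with library 2 above library 1. Over the 15 largest rises the ratio of mutant library 2 to library 1 had a median of 3.54, with 8 at 3 or more, against a median of 0.970 over all genes, of which 291 reached 3.

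Markers of the midgut moved with that unevenness. Of 44 midgut genes listed, 18 were tested, of which 12 were higher and 2 lower (median 2.71). In 15 of the 18, mutant library 2 was at least 3 times library 1, with a median ratio of 6.05. The filter on the mean over all 8 libraries also admits genes that only the mutant libraries express. The count higher and the median are therefore partly set by the filter. For example, epsilonTry stood at 0.187 or less in the 6 wild-type libraries and at 6.22 and 41.9 in the mutant. The trypsin gene deltaTry stood at 0.118 and 1.25 in wild type, 29.3 and 184 in the mutant and 44.8 and 66.9 in fed larvae (5.56 ± 0.82, limma adjusted p = 0.00477), and LysX, a lysozyme gene, at 1.28 and 0.407 against 41.4 and 64.7 (4.88 ± 0.38, 0.000784). Both were high in the mutant, and betaTry, epsilonTry, LysS and LysD included libraries of starved wild type listed at 0. The 2 that fell were the maltase genes Mal-A5, at 414 and 362 against 6.14 and 11.6 (−5.36 ± 0.43, 0.000874), and Mal-A6 (−4.20 ± 0.47, 0.00216). Summed over the list, the level was 472 and 405 in wild type, most of it from the maltases, and 128 and 556 in the mutant. The count higher was 5 without wild-type library 1 and 7 without wild-type library 2. The part of gut RNA in the rises of mutant library 2 was not tested. Markers of other tissues are to be read beside the 21.4% and 12.1% of all genes that were higher and lower. Their summed levels cover the whole lists, of 18 muscle, 12 hemocyte and 16 testis genes, also those not tested. Of 14 muscle genes 3 were higher, with 1 to 5 between the fits without 1 library (1 without mutant library 1 or wild-type 16 h library 2), and their summed level was 49.7 and 64.2 against 135 and 96.6. Of 8 hemocyte genes Hml was higher and NimC2 lower, with none higher without wild-type 16 h library 2 and 3 without mutant library 2. The summed level of the hemocyte list was 214 and 163 against 113 and 29.5, but NimC2 made up most of it in wild type. Without NimC2 the sum was 19.05 and 20.4 against 112 and 28.5. Most of the 112 in mutant library 1 came from PPO1 and PPO2, neither of which passed. They stood at 38.9 and 50.4 there and at 2.58 and 4.00 in mutant library 2. Of 7 testis genes 1 was lower, and none without either mutant library, either 4 h library or wild-type 16 h library 1, and the summed level was 143 and 13.5 against 1.20 and 1.20.

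A set of 70 genes stood below 1 scaled TPM in all 6 wild-type libraries, fed and starved, and at 5 or more in both mutant libraries. All 70 passed, which the rule that chose them makes likely. The cytochrome P450 gene Cyp12d1-d was one, listed at 0 in both wild-type 16 h libraries and at 15.9 and 15.5 in the mutant, with a near-identical copy, Cyp12d1-p, that may share its reads. Cyp9b1 stood at 0.0765 and 0.305 against 21.1 and 25.2 (4.34 ± 0.19, limma adjusted p = 0.000183). Others were trypsins (alphaTry, epsilonTry), mucins (Muc18B, Muc26B, Muc55B), Amy-d and Def. The reverse, at 5 or more in all 6 wild-type libraries and below 1 in both mutant libraries, held for 5 genes. Of these, lectin-28C stood at 93.2 and 82.5 in wild type at 16 h against 0.121 and 0.0694 in the mutant (−6.34 ± 0.17, 0.000122), and CG9928 at 38.6 and 42.7 against 0.904 and 0.900 (−4.45 ± 0.32, 0.000611). Both mutant libraries were far below every wild-type library, fed ones included, in lectin-28C and CG9928. The other 3 were CheB38c, CG6908 and Kal1.

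Noncoding RNAs changed too, and their counts are to be read beside the 21.4% higher and 12.1% lower of all genes. The flamenco locus, lncRNA:flam (chromosome X, 21631891 to 21790731), which gives rise to piRNAs against retrotransposons in the ovary, stood at 3.09 and 2.37 in wild type at 16 h, at 1.15 to 2.10 in the other 4 wild-type libraries and at 111 and 106 in the mutant (4.88 ± 0.21, limma adjusted p = 0.000183). Both mutant libraries lay far above all 6 others. Of 215 small nucleolar RNAs 64 were higher and 20 lower (median 0.58), with 33 higher and 8 lower without mutant library 2, 39 and 6 without mutant library 1, and 41 higher without wild-type library 1. One with expression in every library was snoRNA:Psi28S-2648, a guide for pseudouridine in 28S ribosomal RNA, at 34.2 and 59.7 against 902 and 884 (4.27 ± 0.30, 0.000591). Of 31 small nuclear RNA genes, most of them spliceosomal, 8 were lower and 2 higher, with 2 lower without wild-type library 2 or mutant library 2, and 3 lower and 9 higher without scaling. The U4 gene snRNA:U4:38AB stood at 215 and 221 against 44.1 and 31.7 (−2.51 ± 0.29, 0.00235), and snRNA:U11 of the minor spliceosome rose from 134 and 119 to 523 and 553 (2.08 ± 0.26, 0.00286). The other gene called higher was snRNA:7SKa, of transcription elongation control and not of the spliceosome (1.37 ± 0.20, 0.00443). Copies of snRNA genes share reads. Ribosomal RNA genes were lower in 8 of 86 and higher in 1, next to the fall in ribosomal RNA's share of TPM given above, and ribosomal RNA was depleted when the libraries were made, so its level also carries the depletion.

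The factors that work with Cpsf5 were called higher about as often as all genes. Of 18 tested genes of cleavage and polyadenylation, 4 were higher and none lower (median 0.11), beside 21.4% and 12.1% of all genes, and 2 were higher without a fed library or any 1 of the 16 h libraries. The cleavage stimulation factor gene su(f) stood at 2.46 and 2.45 in wild type and 6 and 5.4 in the mutant (0.95 ± 0.14, limma adjusted p = 0.00427), and Wdr33, which binds the polyadenylation signal, at 3.72 and 3.80 against 7.33 and 7.62 (0.83 ± 0.11, 0.00371). The mutant libraries were the higher ones in both. Cpsf6, the direct partner, stood at 3.92 and 3.07 against 5.36 and 5.30 (0.50 ± 0.14, 0.0412), beside 14.8 and 14.9 in fed larvae, and Pcf11 at 14.4 and 15.3 against 25.2 and 24 (0.69 ± 0.21, 0.0466). The call of Cpsf6 was lost without any 1 fed or 16 h library (0.0506 to 0.18), as was that of Pcf11 (0.0816 to 0.153). Of 14 genes of SR splicing factors and their kinases 2 were higher and 1 lower, and calls in both directions depended on single libraries. The 1 lower was the kinase gene SRPK. Of 14 hnRNP genes 3 were lower and none higher, with mub, a poly(C)-binding protein gene, at 36.9 and 21.3 against 2.35 and 1.42 (−3.35 ± 0.28, 0.000995).

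Genes that wild type changed early in starvation were read in the mutant from separate libraries, since the comparison of 4 h starved with fed wild type shares no library with that of mutant and wild type at 16 h. In wild type, 1759 genes rose (21.1%) and 2220 fell (26.6%) by 4 h. Of those that rose, 666 (37.9%) were lower in the mutant at 16 h and 100 (5.69%) higher, with a median of −0.47. Of those that fell, 906 (40.8%) were higher in the mutant and 57 (2.57%) lower, with a median of 0.53. Among the 4353 genes called in neither direction at 4 h, 775 were higher and 287 lower, with a median of 0.09. The size of the early change ordered the difference: genes that rose by more than 4 log2 units at 4 h had a median of −3.38 in the mutant comparison (119 genes, 76 lower and 5 higher), those that rose by 2 to 4 units −1.22 (354 genes), and those that fell by 4 or more units 1.17 (88 genes, 59 higher and 1 lower). Across the 8332 genes Pearson's r was −0.494 and Spearman's rho −0.475; genes are not independent replicates, and all points share the 4 groups' scaling. The first share was 24.2% and 23.6% without mutant libraries 1 and 2, and the second was 24.8% without wild-type 16 h library 2 and 65.1% without scaling. In a principal component analysis of all genes, the first component (51.0% of the variance) placed the mutant libraries at −47.2 and −48.2, beside the fed libraries at −67.0 and −66.8 and across from the 4 starved wild-type libraries at 51.7 to 68.1. The second component (29.2%) separated the mutant, at −60.2 and −72.7, from the fed libraries at 54.1 and 58.2.

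**Figure D4:**
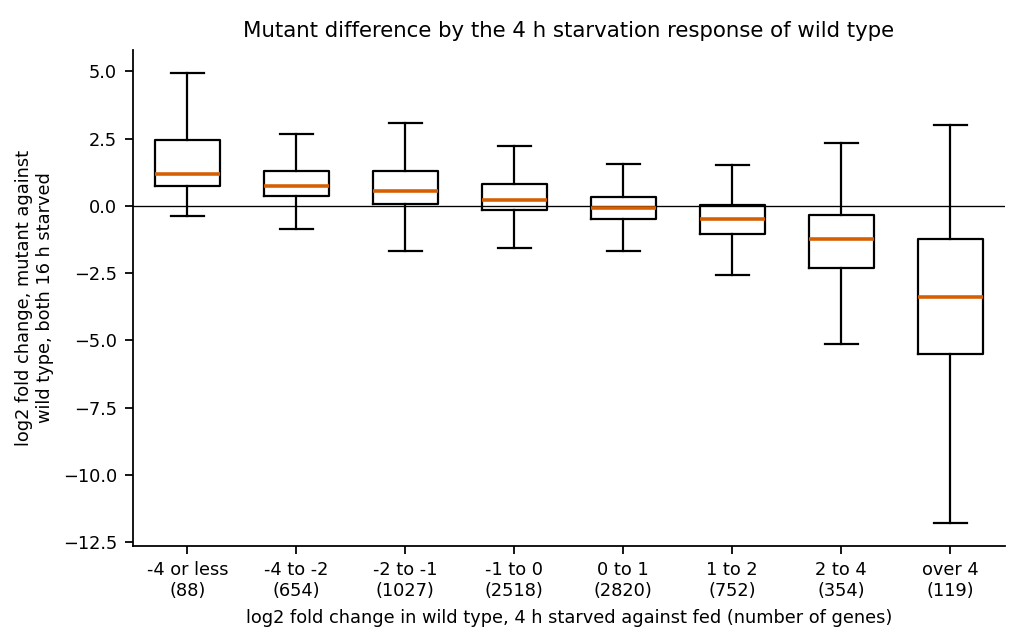
Log2 difference between mutant and wild type at 16 h (y axis) of 8332 genes in 8 ranges of the log2 change of wild type from fed to 4 h of starvation (x axis, number of genes in parentheses), as boxes of the middle 50% of genes with the median as a line, whiskers to 1.5 times the box height and no outlying genes drawn. The medians run from 1.17 among the genes that fell most at 4 h to −3.38 among those that rose most.

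Which isoforms a gene used was tested as the log2 ratio of an isoform's TPM to that of the gene's other isoforms. Of 5289 isoforms of 1995 genes, 428 were used more (8.09%) and 599 less (11.3%) in the mutant. They belonged to 585 genes, of which 343 had one isoform used more and another less, and 310 were also called at the gene level. The shares of the groups did not overlap in 895 of the 1027 called isoforms, against 64.9% of all isoforms tested. The counts were 143 to 195 and 199 to 243 without any 1 of the 16 h libraries. The excess of isoforms used less depended on the scale: a pseudocount of 0.1 gave 288 used more and 306 less, shares in percent gave 336 and 324, and scaled TPM, a choice made after seeing the data, gave 491 and 470. Isoform values rest on the authors' assignment of reads to annotated transcripts, and no read-level evidence was used.

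A large exchange was at Adh, the alcohol dehydrogenase gene, which is known to use a proximal promoter in larvae and a distal one in later stages. Adh-RE, which starts at position 14616267 of chromosome 2L, held 28.7% and 7.38% of the gene's TPM in wild type at 16 h against 98.5% and 98.6% in the mutant, with 95.9% and 96.3% in fed and 12.0% and 1.18% in 4 h starved larvae (log2 ratio 8.39 ± 1.19, limma adjusted p = 0.00794). Adh-RC, which starts upstream at 14615552, held 68.3% and 88.6% against 0.105% and 0.187%. The mutant libraries thus used the isoform of the fed libraries, and all 4 starved wild-type libraries the upstream one, while the level of the whole gene did not pass, at 475 and 396 against 517 and 874 (0.63 ± 0.39, 0.255). Without mutant library 2 the isoform call had an adjusted p of 0.0519. Adhr, the downstream gene of the same transcription unit, switched as well. Adhr-RB, from the downstream start, held 0% in both wild-type 16 h libraries and 100% in both mutant and both fed libraries (5.08 ± 0.59, 0.00423). Its shares rest on low levels, with Adhr-RA at 1.96 and 2.11 TPM in wild type at 16 h and Adhr-RB at 8.67 and 11.9 in the mutant. Adhr-RA, which held 100% in both wild-type 16 h libraries, and Adhr-RB start where the Adh isoforms do, so these are not 2 independent switches.

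The exchanges at Eaat1 and ath had no counterpart in the fed libraries. Eaat1, a glutamate transporter gene, used Eaat1-RA for 95.8% and 92.1% of its TPM in the mutant, 1.48% in a 4 h library and 0% in the other 5 wild-type libraries (7.33 ± 0.51, limma adjusted p = 0.000881). Eaat1-RD, which has the same annotated ends, gave way from 97.3% and 98.0% to 0.851% and 1.01% (−8.13 ± 0.31, 0.000348). At ath, ath-RA was listed at 0% in all 6 wild-type libraries and held 89.4% and 91.2% in the mutant (3.38 ± 0.24, 0.00095), on low levels of 4.15 and 3.43 TPM. Both isoforms were thus the main one in the 2 mutant libraries and at or near 0% in all 6 others. Among the largest changes, CG30286-RC rose from 15.9% and 14.6% to 100% and 98.8% (4.29 ± 0.42, 0.00282), where the fed libraries had 92.2% and 65.4%. Those at CG8664, CG4646 and CG31789 rested on genes with few TPM in starved wild type and lost their call without 1 or more of the 16 h libraries (highest adjusted p between 0.133 and 0.171).

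Among the factors of RNA processing, isoforms of Pcf11 passed beside those of Cpsf5. Pcf11-RC held 54.8% and 48.4% in wild type and 69.6% and 73.0% in the mutant (1.15 ± 0.29, limma adjusted p = 0.0424). The mutant shares were the higher ones. The call of Pcf11-RC was lost without any 1 fed or 16 h library (0.0622 to 0.178). No isoform of a listed autophagy gene passed, and the isoforms of Atg1 were not tested because the gene lay under the limit of 5 TPM.

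**Figure D5:**
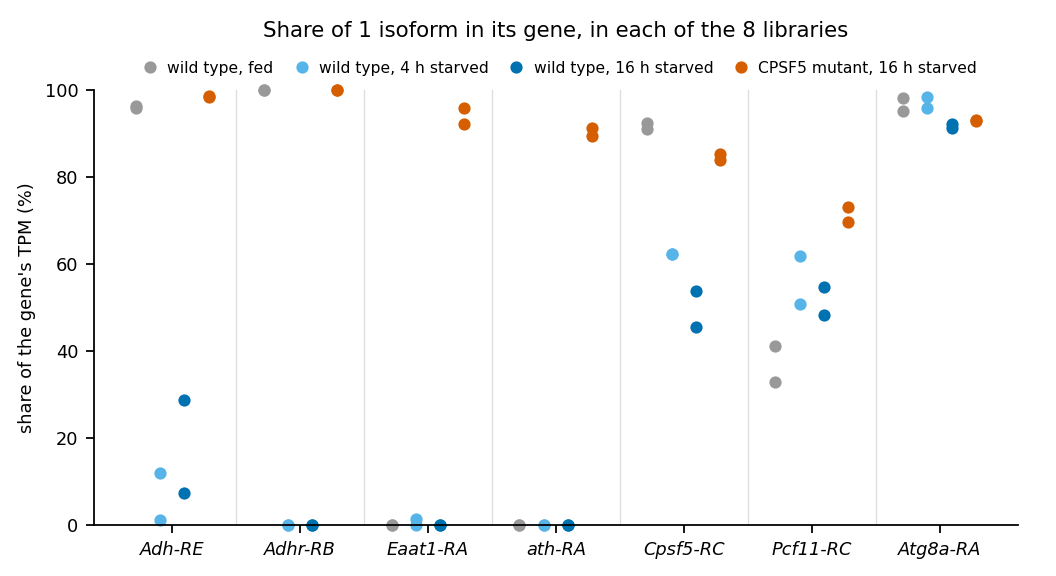
Share of the gene's TPM in percent (y axis) held by 7 isoforms in each of the 8 libraries, 1 point a library, by group. Adh-RE and Adhr-RB are near 100% in the fed and mutant libraries and low in starved wild type, and Eaat1-RA and ath-RA are above 89% in the mutant libraries and at or near 0% in all others.

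Because Cpsf5 acts in the choice of cleavage sites, the length of the 3′ UTR was averaged over each gene's annotated isoforms, weighted by their TPM. This reads only the annotated ends that the authors' isoform values tell apart, and the isoforms also differ in other ways. Of 1266 genes with annotated 3′ UTRs that differ by 100 nt or more, 106 had a longer average in the mutant (8.37%) and 50 a shorter one (3.95%). The counts depended on single libraries, and so did which direction was the more frequent. Without wild-type 16 h library 1 there were 13 longer and 18 shorter averages, so the excess of longer ones turned. Without wild-type 16 h library 2 there were 19 and 14, without mutant libraries 1 and 2 there were 30 and 33 longer with 15 shorter in each, and without either fed library 48 and 26. A fit of the 4 libraries compared alone gave 160 and 94.

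Of the lengthened genes, Tsp42Ep, a tetraspanin gene, averaged 210 and 247 nt in wild type at 16 h and 1237 and 1294 nt in the mutant (log2 ratio 2.06 ± 0.06, limma adjusted p = 0.000689). The nucleotide sugar transporter gene frc averaged 342 and 335 nt against 1095 and 977 nt, with 345 and 312 nt in fed larvae (1.37 ± 0.10, 0.00403). CG7255 went from 158 and 165 nt to 447 and 445 nt (1.06 ± 0.04, 0.000804). In Tsp42Ep, frc and CG7255 both mutant libraries were longer than all 6 wild-type ones, and the calls held without any 1 library. Of the shortened genes, fs(2)ltoPP43 averaged 693 and 721 nt against 213 and 248 nt, with 778 and 806 nt in fed larvae (−1.29 ± 0.06, 0.00132). CG8664 went from 893 nt in both wild-type libraries to 90.2 and 43.8 nt (−2.59 ± 0.14, 0.00224), where fed larvae had 53 and 68.1 nt. Its average was 893 nt in all 4 starved wild-type libraries, with no spread, and the gene had few TPM there, as given above. So for fs(2)ltoPP43 the mutant stood apart from every wild-type library, and for CG8664 it lay with the fed ones. The furin protease gene Fur1, at 1399 and 1373 against 560 and 468 nt, passed with all libraries (−1.28 ± 0.27, 0.0482) but not without any 1 fed or 16 h library (0.0746 to 0.224).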

How the data were processed

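Total RNA of larval fat body was extracted with Trizol and made into stranded total RNA libraries after ribosomal RNA depletion, per the labels' protocols. STAR 2.5.3 and the build BDGP6 are named, per the submitters' processing notes; which tool gave TPM is not given in the sources used here. Values in TPM were deposited by the authors per gene (17471 genes) and per transcript (34485), 1 column a library, with no column of another sample. Names and coordinates came from Ensembl release 115 (BDGP6.54): 17249 gene IDs matched, 132 more by the sum of their isoforms, and 90 did not.

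TPM was divided by median-of-ratios factors, filtered at a mean of 1 over the 8 libraries and tested on log2(scaled TPM + 1) with limma 3.58.1 (R 4.3.3; Python 3.11.15, pandas 2.3.3), with 4 groups of 2 libraries, a variance trend and Benjamini-Hochberg adjustment over all 8332 genes (4 residual degrees of freedom and a median of 2.16 prior ones). Isoform ratios (unscaled TPM, pseudocount 1, genes of at least 5 TPM, shares between 5% and 95%) and TPM-weighted 3′ UTR length (offset 100 nt) were tested in the same design. The fits were tested on simulated data. An exact permutation test of 2 against 2 libraries cannot go below 0.333, so none was used.

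The comparison, gene lists and rules were chosen with earlier results of these data known. The text names Cpsf5, the 15 largest coding rises and falls, the 5 largest noncoding ones, up to 4 members of each list, the 8 largest isoform rises and falls and the 5 largest 3′ UTR changes in each direction, from which it draws examples. Others were named after their values were seen: srp, apolpp, Lsd-1, Adh, Lsp1beta, Sgs1, Sgs3, sage, spok, snRNA:7SKa, ng3, PH4alphaSG1, EcR, Eip78C, Eip75B, Hr39, bmm, Myc, further autophagy genes, Stat92E, dome, Drs, BomS1, BomS5, Adh-RC, and the genes near 0 in all libraries of 1 genotype. Alternatives were other scalings, pseudocounts and filters, a fit of the 4 libraries compared, no variance trend and leaving out each library. Some results are not reported here.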

Additional observations from a re-analysis of the deposited data

How the results depend on the processing

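The counts of genes, isoforms and 3′ UTRs depended on which library was left out, and those of genes also on the scaling. Between the 8 fits with 1 library left out, the genes called higher numbered 1014 to 1879 and lower 561 to 1142, isoforms used more 143 to 484 and less 199 to 664, genes with a longer average 3′ UTR 13 to 139 and a shorter one 14 to 69. The share of genes that rose at 4 h and were lower in the mutant ran from 23.6% to 42.6%, and that of genes that fell and were higher from 24.8% to 43.5%. TPM as deposited, with no scaling, gave 3864 genes higher, 333 lower and 65.1% for the latter share. A mean of 5 scaled TPM as the filter gave 1127 genes higher. The isoforms used more and less were 288 and 306 with a pseudocount of 0.1 and 336 and 324 when shares in percent were tested, and the 4 libraries compared alone gave 160 longer and 94 shorter 3′ UTRs. Isoform ratios from scaled TPM, an alternative chosen after seeing the data, gave 491 and 470.

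Without scaling, 8 differences of genes named by rule changed sign. These were Cpsf5 to 0.33, Vha16-1 to 0.044, Wdr59 to 0.19, PGRP-LB to 0.016, SRPK to 0.20, glo to 0.36, PAN2 to 0.16 and Drice to 0.044. Stat92E, named after its values were seen, also changed sign, to 0.0014. With quantile normalization ap changed to −0.069. Over the single genes, isoforms, 3′ UTRs and lists and all alternatives, 4912 values stayed on their side of the threshold or near their value, 509 fell below the threshold, 14 passed it and 433 counts moved by over 1.5 times. The causes were not tested. No paired analysis was possible because the labels carry no replicate numbers.

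With 2 libraries a group, unknown depth and no fed mutant, small differences are beyond these data. Calls near the threshold should be read as unsettled, and values on the log2(scaled TPM + 1) scale as too small for genes below about 1 scaled TPM.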

Other observations

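Cytochrome P450 genes, many of which act on foreign compounds or hormones, changed in both directions. Among all genes 21.4% were higher and 12.1% lower. Of 54 tested, 19 were higher and 14 lower in the mutant, with a median of 0.27, and the higher count was 12 without mutant library 2 or wild-type 16 h library 2. Cyp4e3 stood at 0.757 and 0.311 scaled TPM in wild type at 16 h against 15.4 and 97.0 in the mutant (log2 difference 4.72 ± 0.75, limma adjusted p = 0.00622), and Cyp28d2 at 1.16 and 1.05 against 15.4 and 16.8 (3.02 ± 0.18, 0.000416). Cyp6g1, which is known for insecticide resistance, stood at 164 and 190 against 34.5 and 44.1, with 0.723 and 1.56 in fed larvae (−2.15 ± 0.34, 0.00607). The groups did not overlap in these genes, and for Cyp6g1 the mutant lay between fed and starved wild type. Cyp28d2 and Cyp6g1 were named after their values were seen.

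Among signals that the fat body sends to other organs, 5 of 19 were higher and 2 lower, beside 21.4% and 12.1% of all genes. The 5 became 2 without either wild-type 16 h library and 3 without a fed or a mutant library, and the 2 became 1 without mutant library 1 or wild-type 16 h library 2. Gbp1, a growth-blocking peptide gene, stood at 152 and 97.5 in wild type and 28.3 and 34.6 in the mutant (−1.92 ± 0.33, limma adjusted p = 0.00781), and egr, the fly's TNF, at 39.2 and 41.9 against 15.7 and 18.7 (−1.19 ± 0.23, 0.0114; without scaling 0.505, without wild-type library 2 0.0567 and without mutant library 1 0.0569). Idgf2, a chitinase-like growth factor gene, stood at 92.4 and 60.2 against 211 and 207 (1.47 ± 0.26, 0.00862). The lists of 18 tested cuticle genes, of 123 listed, held 5 higher and 2 lower, led by Cpr49Ac at 1202 and 1420 against 51.6 and 62.7 (−4.50 ± 0.38, 0.000993); without either wild-type 16 h library the count higher was 2, and without mutant library 1 it was 3.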
